A study of Mus musculus with 4 samples.

Results

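Eosinophil progenitor-like cells rich in Prg2 transcripts were picked out of 4 single-cell RNA libraries of mouse bone marrow, and 93 of the 34320 cells kept from all libraries belonged to them (0.271%, exact 95% binomial interval 0.219 to 0.332%). A cell was kept when it had at least 500 detected genes, at least 1000 unique molecular identifiers (UMIs, each standing for 1 captured RNA molecule) and at most 10% of its UMIs from mitochondrial genes. It was then taken when it held at least 5 UMIs of Prg2 and at least 1 UMI of Prg3. The cells were thus chosen by their raw counts of 2 genes, so the levels of Prg2 and Prg3 are given below as a description without a test. The chosen cells are called gated cells.

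The study sorted LSK cells (lineage-negative, Sca-1-positive, Kit-positive, the fraction that holds stem and multipotent progenitor cells) from the bone marrow of wild-type (WT) mice. Control mice received vehicle, and treated mice received intraperitoneal Yoda1, an agonist of the mechanically gated cation channel Piezo1, over 2 weeks. There were 2 libraries per group, named here control 1, control 2, Yoda1 1 and Yoda1 2, and series of 4 values follow that order. The labels do not say whether the libraries came from separate mice or pools, so no p-value measures more than the spread between libraries, which may be technical. The tests across genes (edgeR) also draw the spread of each gene from all tested genes. Their p-values, however small, therefore do not rest on the few libraries of that gene alone.

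Eosinophils are granulocytes that mature in the bone marrow from myeloid progenitors under interleukin 5, and they are known for defence against helminths and for allergic inflammation. Their specific granules hold major basic protein (made from Prg2), its homologue (Prg3), eosinophil peroxidase (Epx) and the eosinophil-associated ribonucleases (the Ear genes). GATA1, C/EBP factors and PU.1 are the transcription factors best known for switching on this granule programme, and C/EBP epsilon (Cebpe) is needed for the late granule stage in eosinophils and neutrophils alike.

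The promoters of 4 genes that the results turn on are shown because they carry different combinations of short motifs of those factors. Each is the 250 bases before the RefSeq start of the gene on its own strand, in the build GRCm38.p6, and capitals mark the GATA core, GATAA or TTATC on the other strand. The windows are chr2:84987965-84988214 on the plus strand for Prg3, chr11:87875537-87875786 on the minus strand for Epx, chr6:106749038-106749287 on the minus strand for Il5ra and chr14:51057243-51057492 on the minus strand for Rnase12. The last of these lies inside the longer span that the GENCODE annotation gives Rnase12, which is printed with its values below, so it is upstream of the RefSeq start alone.
Prg3: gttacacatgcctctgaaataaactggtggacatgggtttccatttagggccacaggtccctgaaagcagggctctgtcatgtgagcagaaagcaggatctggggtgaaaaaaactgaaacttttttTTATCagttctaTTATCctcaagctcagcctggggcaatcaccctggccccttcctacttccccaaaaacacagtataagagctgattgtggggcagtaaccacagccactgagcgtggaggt
Epx: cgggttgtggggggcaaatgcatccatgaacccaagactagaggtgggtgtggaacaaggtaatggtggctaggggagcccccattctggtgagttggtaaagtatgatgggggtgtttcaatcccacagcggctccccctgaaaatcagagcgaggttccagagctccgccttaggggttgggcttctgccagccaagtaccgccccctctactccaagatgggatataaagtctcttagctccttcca
Il5ra: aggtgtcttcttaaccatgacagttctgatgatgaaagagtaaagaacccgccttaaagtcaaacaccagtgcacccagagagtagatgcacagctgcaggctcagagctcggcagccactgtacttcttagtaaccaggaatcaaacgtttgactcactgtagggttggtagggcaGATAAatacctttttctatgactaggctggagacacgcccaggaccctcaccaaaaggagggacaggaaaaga
Rnase12: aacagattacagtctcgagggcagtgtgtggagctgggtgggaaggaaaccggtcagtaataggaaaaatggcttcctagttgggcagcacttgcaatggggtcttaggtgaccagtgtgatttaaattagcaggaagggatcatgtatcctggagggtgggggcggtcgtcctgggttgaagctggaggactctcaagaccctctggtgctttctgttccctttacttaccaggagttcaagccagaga

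The Prg3 window held 2 GATA matches, beginning 123 and 111 bases before the start, and the Il5ra window held 1 beginning 73 bases before it. No GATA match lay in the Epx or Rnase12 window. A C/EBP core (TTGNNNAA or TTNNNCAA) was found once in the Prg3 window and once in that of Epx, and the PU.1 core (AGGAAG or CTTCCT) was found once for Prg3 and at 2 places for Rnase12. Such short words are common: over 32851 windows of 250 bases from 27025 genes, 22.6% held the GATA core, 33.3% the C/EBP core and 29.5% the PU.1 core. A match is a description of the letters and not evidence of binding.

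Prg2-rich cells were rare in every library and rarer in both Yoda1 libraries. Control 1 held 36 of 7620 kept cells (0.472%, exact 95% interval 0.331 to 0.654%), and control 2 held 36 of 7822 (0.460%, 0.323 to 0.637%). Yoda1 1 held 14 of 9122 (0.153%, 0.0839 to 0.257%), and Yoda1 2 held 7 of 9756 (0.0718%, 0.0289 to 0.148%). Both control values lay above both Yoda1 values. The mean share was 0.466 ± 0.00863% (SD, n = 2) in control and 0.113 ± 0.0578% (SD, n = 2) in Yoda1 libraries, a difference of -0.354 percentage points or 4.14-fold. The exact two-sided permutation test over the 6 arrangements of the libraries gave p = 0.333, the smallest p this design allows, so the difference could not pass a threshold of 0.05 at any size.

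Other granulocyte-primed cells moved with it in part. Other cells with at least 5 Cpa3 and 1 Ms4a2 UMIs, genes of mast cells and basophils, made up 4.07, 4.04, 1.77 and 0.974% of kept cells. Their share was thus lower in both Yoda1 libraries too, and there were 11.6, 11.4, 8.70 and 7.37 gated cells per 100 of them. Cells with at least 10 Elane and 10 Mpo UMIs, neutrophil-primed cells that did not pass the Cpa3/Ms4a2 gate, made up 22.4, 15.0, 17.2 and 2.15%, so only Yoda1 2 stood apart. The gated cells numbered 2.11, 3.07, 0.894 and 3.33 per 100 of these. Depth differed as well, with a median of 11199.5, 9389, 10174 and 7307 UMIs in the other kept cells, and the part of depth or of the mix of cells in the difference was not tested. In an alternative, every cell was thinned to 3000 UMIs before gating, shallower cells were left out, and the gate was lowered to 2 Prg2 UMIs and 1 Prg3 UMI. The shares were then 0.325, 0.357, 0.112 and 0.0430%, a 4.41-fold difference.

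**Figure D1:**
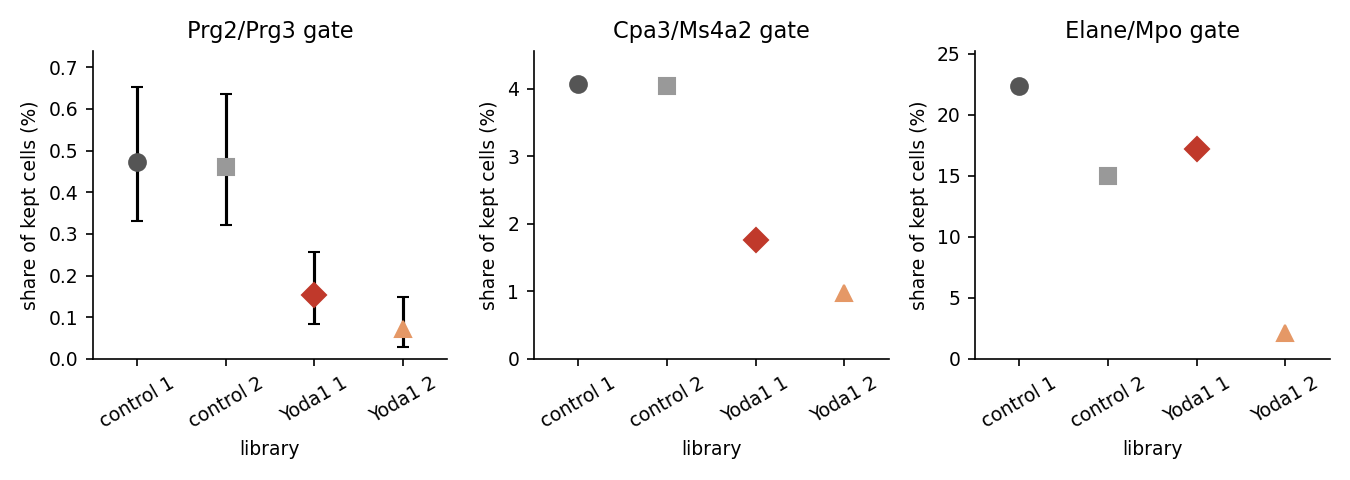
Share of kept cells (%, linear axes from 0) in each of the 4 libraries that pass the Prg2/Prg3 gate (left, with exact 95% binomial intervals), the Cpa3/Ms4a2 gate (middle) and the Elane/Mpo gate (right), the last 2 without gated cells. The Prg2/Prg3 share was 0.472 and 0.460% in control and 0.153 and 0.0718% in Yoda1 libraries, while the Elane/Mpo share was low in Yoda1 2 alone.

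The libraries held between 89058521 and 110493533 UMIs in kept cells, and the gated cells contributed 623209, 577443, 287129 and 96327 of them. Gated cells were deeper than the rest, with medians of 14907, 16700, 16731 and 15193 UMIs and of 4166.5, 4119, 4146.5 and 4149 genes, against 3500.5, 3174, 3288 and 2781 genes in other cells. No gated barcode occurred in another library, and between 64 and 81 barcodes of each library did. With 7 gated cells Yoda1 2 fell under the minimum of 10 cells set for a sum, so the tests across genes used control 1, control 2 and Yoda1 1, and the values of Yoda1 2 are printed beside them.

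Prg2 and Prg3, which chose the cells, were spread over a wide range within them. Per gated cell the Prg2 count ran from 5 to 1187 UMIs, with medians of 88, 67.5, 153.5 and 27 in the 4 libraries. Summed per library, Prg2 stood at 11770, 13790, 15400 and 5232 CPM (the UMIs of a gene per 1000000 UMIs of that set of cells) in gated cells and at 5.23, 5.23, 3.87 and 0.906 CPM in all others. The 93 cells held 93.2, 94.5, 91.2 and 86.0% of all Prg2 UMIs of their libraries. Prg3 was less exclusive: it stood at 1205, 1806, 1229 and 914 CPM in gated cells, which held 70.8, 74.4, 64.0 and 42.9% of its UMIs. Outside the gate a low Prg2 level was also found in stem-like cells. Among cells with at least 2 UMIs of Hlf, a stem cell transcription factor, 6.37, 5.01, 3.08 and 0.619% had a Prg2 UMI (median depths 10150, 7579, 7722 and 7641 UMIs), at 4.92, 5.55, 4.98 and 0.718 CPM. In the controls and Yoda1 1 this was close to the level of all cells outside the gate, and stray Prg2 UMIs were read as background there. In Yoda1 2 the level was not uniform: 5.71% of Elane/Mpo cells (12 of 210, median depth 20273.5 UMIs) had a Prg2 UMI, at 4.56 CPM, so the low Hlf value was not taken as the background of those cells.

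Cells close to the edge of the gate had little or no Epx but still carried Cebpe. The 15 gated cells with 5 to 7 Prg2 UMIs had no Epx UMI and 354 CPM of Cebpe. Of these, 4 deep cells of control 1 held 19, 12, 27 and 27 UMIs of Pf4, a platelet gene, and the other 11 held at most 2 each. Just outside, 14 cells with 3 or 4 Prg2 UMIs and a Prg3 UMI had 14.3 CPM of Epx and 526 CPM of Cebpe, and only 2 cells had at least 5 Prg2 UMIs without Prg3. At the other end, the 42 cells with 100 or more Prg2 UMIs had 1213 CPM of Epx and 940 CPM of Cebpe. A further 36 cells outside the gate, 10, 15, 9 and 2 per library, had at least 5 Prg3 but under 5 Prg2 UMIs. They carried 623 CPM of Cebpe and 7819 CPM of Mpo with 23.4 CPM of Epx and 21.9 CPM of Il5ra.

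Within the 93 cells the eosinophil granule genes varied together. Across cells, Spearman's rho of UMIs per 10000 was 0.775 between Prg2 and Epx, 0.699 between Prg2 and Prg3, 0.536 between Prg3 and Cebpe and 0.431 between Epx and Cebpe. With the neutrophil gene Elane it was -0.234 for Prg2, -0.193 for Epx and 0.063 for Prg3. With Mpo it was -0.06 for Prg2 and -0.016 for Epx. These describe 93 cells from 4 libraries that share depth and the gate on Prg2, and carry no test. Epx was detected in 62 cells, and the other 31 cells, 11, 10, 5 and 5 per library, held 2031 CPM of Prg2 against 18480 CPM in cells with Epx. Cebpe differed less between those 2 sets, with 532 and 867 CPM, whereas Rnase12 stood at 124 and 303 CPM and Il5ra at 7.27 and 40.6 CPM. The plot of Prg2 against Epx and Cebpe per cell shows this spread.

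**Figure D2:**
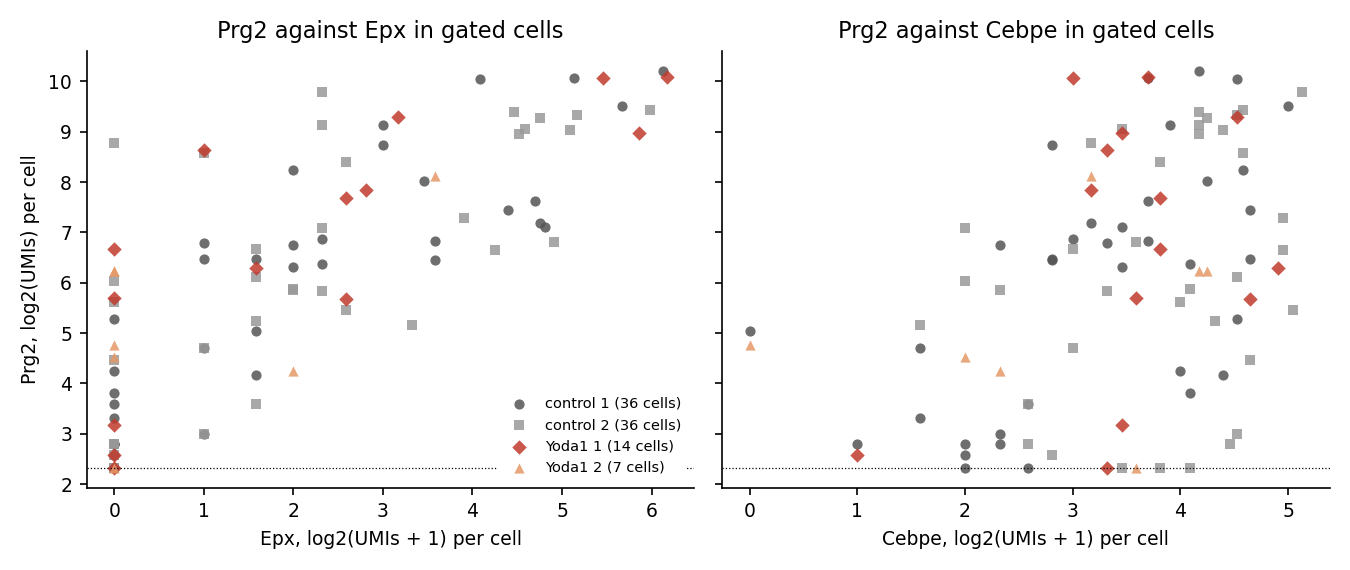
UMIs of Prg2 (vertical, log2) against Epx (left) and Cebpe (right, both log2 of UMIs + 1) in each of the 93 gated cells, coloured by library, with the dotted line at the gate of 5 Prg2 UMIs. The 31 cells without Epx had between 5 and 436 Prg2 UMIs, while the 62 with Epx reached 1187, and Cebpe was found in 91 of the 93 cells.

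The label was checked against its markers and against markers of other cells that the gate could hold. Of the defining markers not read by the gate, Cebpe had a UMI in 91 of 93 cells and Epx in 62. Of the supporting genes, Rnase12 was detected in 77 cells, Siglecf and Gata1 in 49 each, Il5ra in 30, Ear6 in 14, Ear1 in 13, Ear2 in 11 and Ccr3 in 6. The cells also carried granule genes of other lineages: 51 of the 93 (54.8%; 16, 25, 7 and 3 per library) passed the Cpa3/Ms4a2 gate, 70 (75.3%) passed the Elane/Mpo gate, 42 passed both and 14 neither. Markers of mature mast cells (Mcpt4, Cma1 and Tpsb2) had no UMI in any gated cell. Of the late neutrophil granule genes Ltf and Camp had none either, whereas Ngp had a UMI in 3 cells, S100a9 in 14 and S100a8 in 26. However, Mcpt4, Tpsb2 and Ltf had too few counts to be tested in any comparison below, and Cma1 was tested against all other kept cells only. Their absence therefore does not set the gated cells apart. The granule markers of the label were thus present together with genes of early neutrophil, mast cell and basophil progenitors, and the cells are not called eosinophils. Of the genes of the sort, Kit was detected in 65 cells and Ly6a, the gene of Sca-1, in 23.

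A small subset stood apart in 1 library. In control 1, 6 gated cells had at least 10 UMIs of Pf4, and no gated cell of the other libraries had. They were deep (27398 to 32516 UMIs), 5 of them had no Epx and between 5 and 10 Prg2 UMIs, and their Cebpe level was 213 CPM against 821 CPM in the other 87 cells. Whether such barcodes hold more than 1 cell was not tested. Prss34, a basophil protease, was as uneven: 7 cells had at least 10 UMIs, 6 in control 2 and 1 in Yoda1 1.

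Against all other kept cells, most tested eosinophil granule genes were higher in the gated cells, and so were a part of the mast cell and basophil, early neutrophil granule and secretory pathway genes. More than 5 genes each of the stem, lymphoid, megakaryocyte and erythroid, monocyte and interferon-response lists were lower. Of 15452 genes tested with edgeR's quasi-likelihood test, 402 were higher (2.6% of genes tested) and 369 lower (2.39%, or 4.99% in either direction) at a Benjamini-Hochberg adjusted p under 0.05. The median log2 fold change of all genes was -0.11. The counts of called members of each list below are to be read beside these shares of 2.6 and 2.39%. In each comparison edgeR's filter on low counts could admit a gene through the side where it was high. The counts and medians of lists whose genes were nearly absent on the other side were thus set in part by that filter. They are given as a description. Control 2 weighed heavily on these calls: without it, on control 1 and Yoda1 1 alone, 137 genes were higher and 87 lower. Without the 51 cells that also passed the Cpa3/Ms4a2 gate the counts were 121 and 146, from the 2 control libraries, since Yoda1 1 then kept only 7 cells. DESeq2 called 308 higher and 117 lower, and limma-voom 552 and 77. Each SE after ± was obtained from the test itself, as the size of the fold change over the root of its F statistic.

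Of 12 listed genes of the eosinophil granule and of the ribonuclease A family, 9 were tested, 6 were called higher and none lower (2.6% of all genes were called higher), with a median log2 fold change of 5.12. Epx, the peroxidase of the specific granule (chr11:87864000-87875536, minus strand, GRCm38), stood at 546, 580, 690 and 145 CPM in gated cells and at 0.342, 0.260, 0.372 and 0.0884 CPM in all others. The groups did not overlap, and the log2 fold change was 10.84 ± 0.22 (SE). Over the 3 libraries of the test the gated level was 605 ± 75.2 CPM (SD, n = 3). Gated cells held 90.7, 93.6, 82.9 and 63.6% of all Epx UMIs.

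Rnase12, a member of the ribonuclease A family (chr14:51056698-51057661, minus strand), stood at 173, 331, 230 and 166 CPM against 6.35, 11.2, 3.97 and 5.05 CPM. The lowest gated library lay above the highest value of other cells, and the log2 fold change was 5.12 ± 0.17 (SE; adjusted p = 8.14e-185, edgeR). The ribonucleases Ear1, Ear2 and Ear6 were called higher as well, on few counts: Ear1 at 40.1, 19.1, 17.4 and 93.4 CPM against at most 0.0339 CPM, Ear2 at 17.7, 15.6, 10.5 and 31.1 CPM, and Ear6 at 25.7, 19.1, 24.4 and 0 CPM. The Ear genes are near-identical copies, so how reads were divided among them is uncertain. Srgn, the proteoglycan core that packs granule contents, had a log2 fold change of 0.97 ± 0.16 (SE; adjusted p = 4.49e-07, edgeR). Rnase6, Rnase4 and Ang did not pass the test, and Ear10 had no UMI in any kept cell.

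Of 20 transcription factors and regulators tied to eosinophil fate, 8 were higher, 3 lower and 9 were not called (median 0.43). Cebpe, the C/EBP factor of granule maturation (chr14:54710360-54712174, minus strand), stood at 635, 959, 620 and 633 CPM in gated cells against 50.1, 52.7, 25.5 and 9.37 CPM. That gap left no overlap, with a log2 fold change of 4.14 ± 0.17 (SE; adjusted p = 1.15e-131, edgeR). Smaller rises were called for Lmo4 (1.48 ± 0.16), Ikzf2 (1.45 ± 0.16), Myb (1.03 ± 0.16), Spi1, which encodes PU.1 (0.79 ± 0.15), and Trib1, a pseudokinase known to act on C/EBP alpha (2.37 ± 0.50), and the last 2 were not called without control 2. Gata1 was not called: it stood at 59.4, 43.3, 87.1 and 10.4 CPM against 55.6, 34.1, 35.6 and 11.3 CPM (log2 fold change 0.49 ± 0.21, adjusted p = 0.198, edgeR), and it passed without control 1 (0.81, adjusted p = 0.0368). Gata2 was not called either (0.20 ± 0.17). Zfpm1, the FOG1 cofactor of GATA1, fell (-1.27 ± 0.20), as did the monocyte factor Irf8 (-1.36 ± 0.18) and Gfi1b (-1.29 ± 0.29).

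Among 18 receptors and surface proteins of eosinophils, 17 were tested, 7 were higher and 2 lower (median 0.70). Il5ra, the interleukin 5 receptor that defines eosinophil-committed progenitors, stood at 24.1, 43.3, 13.9 and 20.8 CPM against 0.449, 0.769, 0.653 and 0.442 CPM. Its gated values were all above those of other cells, with a log2 fold change of 5.56 ± 0.46 (SE; adjusted p = 3.43e-30, edgeR). Siglecf, the sialic acid lectin of mouse eosinophils, was higher by 2.02 ± 0.26 on the log2 scale and Csf2rb, the signalling chain shared by the receptors of interleukins 3 and 5 and GM-CSF, by 1.21 ± 0.21. Ccr3, the eotaxin receptor, was found in only 6 gated cells, and its call (2.54 ± 0.75) was lost without either control library. Itgb7 (-1.89 ± 0.39) and Il6ra (-1.91 ± 0.40) were lower. Of the receptors that define the sort or mark early progenitors, Ly6a fell by 2.02 on the log2 scale and Flt3 by 1.67, while Kit was not called (-0.31 ± 0.18, adjusted p = 0.481, edgeR). Fcgr3, an Fc receptor of myeloid progenitors, was the 1 member of that list that was higher (1.82 ± 0.18).

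Mast cell and basophil genes were higher in 5 of 10 tested members and lower in 1. Hdc, which makes histamine, stood at 290, 423, 282 and 332 CPM against 46.5, 50, 22.4 and 10.0 CPM (log2 fold change 3.09 ± 0.16 SE, adjusted p = 4.62e-80, edgeR). Cpa3, the mast cell carboxypeptidase, was higher by 2.55 ± 0.16 and Ms4a2, a chain of the IgE receptor, by 2.62 ± 0.18. Without the cells that passed the Cpa3/Ms4a2 gate, a fit on the 20 and 11 remaining gated cells of the 2 control libraries still called Hdc higher (2.91). In that fit Cpa3 (1.51) was called and Ms4a2 (1.12, adjusted p = 0.0692, edgeR) was not, but both are read by the gate that removed the cells. Mcpt8, a basophil protease, was higher by 1.87 ± 0.16 in all gated cells and stood at 0.05 in the same fit (adjusted p = 0.959, edgeR). Only gated cells were removed for that fit, and the other cells that passed the Cpa3/Ms4a2 gate stayed on the other side. The part of this uneven removal in the lower value of Mcpt8 was not tested. Prss34 stood at 22.5, 765, 216 and 51.9 CPM against 141, 193, 66.5 and 216 CPM. Its call (0.89 ± 0.18) rested on control 2, where 2 cells held 72.4% of its UMIs, and without that library the log2 fold change was -0.15. Gzmb, a granzyme that mouse basophils and mast cells can express, had no UMI in the gated cells of 3 libraries, where 3 counts would have been 2.02 CPM, so it was at least 2.26-fold higher in the other cells.

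Neutrophil primary granule genes were higher in 5 of 8 members, with a median of 0.65. Mpo, the myeloperoxidase, stood at 6568, 7343, 5649 and 4993 CPM against 3402, 2395, 2309 and 650 CPM (log2 fold change 1.28 ± 0.18 SE, adjusted p = 6.84e-11, edgeR), above the other cells in all libraries. Ms4a3, a marker of granulocyte and monocyte progenitors, was higher by 1.76 ± 0.16. The rises of Elane (0.62 ± 0.17) and Ctsg (0.67 ± 0.16), serine proteases of the same granules, were lost without control 2 and without Yoda1 1. They were also lost against other cells matched to the gated cells in UMI count, where Elane stood at 0.31 (adjusted p = 0.26, edgeR) and Ctsg at 0.38 (adjusted p = 0.111, edgeR). Of the late granule genes none of 7 was higher, and S100a8 (-1.57 ± 0.23) and S100a9 (-1.14 ± 0.33) were lower.

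Of 18 tested secretory pathway genes, which serve protein folding and transport in the endoplasmic reticulum, 10 were higher, none was lower and 8 were not called, with a median log2 fold change of 0.57. Of the 10, the thiol isomerase P4hb (1.0 ± 0.15) and the calcium-binding chaperone Calr (0.99 ± 0.16) had the largest folds. Hsp90b1 (0.75 ± 0.16) and Manf (0.69 ± 0.15) came next, and the other 6, among them Hspa5 (0.58 ± 0.15), lay between 0.53 (Canx) and 0.65 (Sdf2l1). Calr stood at 2104, 2263, 2090 and 1526 CPM against 1262, 928, 1089 and 569 CPM. The calls of Calr, Hsp90b1, Manf and Hspa5 were lost without control 2. Against the cells matched in UMI count, Hspa5 stood at 0.42 and had an adjusted p of 0.0503 (edgeR).

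Lipid mediator and haem genes were called in a few members. Of 9 tested eicosanoid genes 3 were higher and none lower: Alox5, which starts leukotriene synthesis (2.28 ± 0.38), Lta4h, which makes leukotriene B4 (0.95 ± 0.16), and Tbxas1, thromboxane synthase (1.04 ± 0.22). Alox5 was not called without control 2 (1.71, adjusted p = 0.128, edgeR). Its log2 fold change was 0.14 (adjusted p = 0.973, edgeR) in the fit on the 20 and 11 gated cells of the control libraries outside the Cpa3/Ms4a2 gate. The other side of that fit kept its Cpa3/Ms4a2 cells. Ltc4s, which makes the cysteinyl leukotrienes known from mature eosinophils, was not called (-0.48 ± 0.43). Ltb4r1, the leukotriene B4 receptor, stood at 111, 166, 132 and 156 CPM against 28.7, 34.6, 21.8 and 15.0 CPM (2.24 ± 0.18). Of 9 tested haem genes only Alas1, the first enzyme of the pathway, was higher (0.89 ± 0.16), at 151, 237, 153 and 114 CPM against 86.6, 114, 89.7 and 37.1 CPM, and not without control 2 (adjusted p = 0.0626, edgeR).

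Several of the largest rises were in genes outside the lists, for which no common function was tested. Ldhc, a lactate dehydrogenase best known from testis (chr7:46861203-46878142, plus strand), stood at 122, 156, 87.1 and 31.1 CPM against 0.918, 1.24, 0.617 and 0.398 CPM. It was detected in 52 gated cells, and its log2 fold change was 7.04 ± 0.25 (SE; adjusted p = 4.44e-166, edgeR). Cd63, a tetraspanin of granule membranes, stood at 1367, 2572, 1787 and 2055 CPM against 259, 328, 187 and 270 CPM (2.88 ± 0.17). Arsb, a lysosomal sulfatase, was higher by 3.03 ± 0.17, and the lysosomal protease Ctsh by 1.89 ± 0.19. Syne1, a nuclear envelope protein, was higher by 2.80 ± 0.20. Vat1 (1.90 ± 0.17), Tent5a (1.86 ± 0.15), the syntaxin Stx3 (1.69 ± 0.21), Irak3, an inhibitor of Toll-like receptor signalling (1.78 ± 0.24), and Anxa1, an annexin (1.58 ± 0.16), were higher as well.

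Genes of other lineages were lower. Of 10 stem and multipotent genes 6 were lower and none higher (median -1.14), among them Ctla2a (-1.45 ± 0.17) and Hlf (-1.17 ± 0.23), the latter not without control 2. Of 10 lymphoid genes 7 were lower (median -2.20): Dntt, the lymphoid DNA polymerase, stood at 53.0, 39.8, 20.9 and 125 CPM against 96.7, 249, 146 and 391 CPM (-1.93 ± 0.21). Of 12 megakaryocyte and erythroid genes 7 were lower and 1, the integrin Itga2b, was higher (0.55 ± 0.18, not without any 1 of the 3 libraries). Pf4 stood at 348, 27.7, 83.6 and 0 CPM against 767, 1024, 759 and 401 CPM (-2.74 ± 0.19), and 2 cells held 53.0% of the Pf4 UMIs of control 1. Of 10 monocyte genes 6 were lower, including Lyz2 (-1.04 ± 0.18) and Ctss (-1.49 ± 0.32). Igkc, an immunoglobulin chain, was lower by 5.55 on the log2 scale, but in each library 10 other cells held between 92 and 98% of its UMIs. With the cells of highest doublet score removed, Igkc was not called (-0.59, adjusted p = 0.864, edgeR). That score, meant for barcodes with more than 1 cell, was taken not to have worked in these libraries.

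Interferon-response genes were lower in 10 of 18 members and higher in none (2.39% of all genes were called lower), with a median of -0.91. Isg15, a ubiquitin-like antiviral protein, stood at 20.9, 26.0, 132 and 0 CPM against 87.5, 47.6, 357 and 40.4 CPM (-1.48 ± 0.21, adjusted p = 4.53e-10, edgeR), lower in gated cells of all libraries. Summed over the list, gated cells had 738, 535, 1560 and 332 CPM and other cells 1102, 944, 2584 and 884 CPM, so Yoda1 1 was highest in both kinds of cell.

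Few genes of proliferation and not the drug target passed the test. None of 14 S-phase genes was called, and of 14 G2/M genes only Ube2c was higher (0.52 ± 0.16), a call lost without control 2 or Yoda1 1. Mki67 stood at 257, 236, 212 and 197 CPM against 266, 250, 284 and 256 CPM (-0.17 ± 0.16, adjusted p = 0.736, edgeR). With each cell thinned to 3000 UMIs, which left out 1, 2, 1 and 1 shallower gated cells, 37.1, 35.3, 46.2 and 66.7% of gated cells had a Mki67 UMI against 35.6, 28.6, 35.8 and 24% of other cells; without thinning the gated shares were 69.4, 61.1, 85.7 and 57.1%. Piezo1, the channel that Yoda1 opens, stood at 33.7, 15.6, 13.9 and 41.5 CPM against 25, 17.9, 20.1 and 14.5 CPM (0.05 ± 0.29, adjusted p = 0.970, edgeR), and Piezo2 had no UMI in any kept cell.

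**Figure D3:**
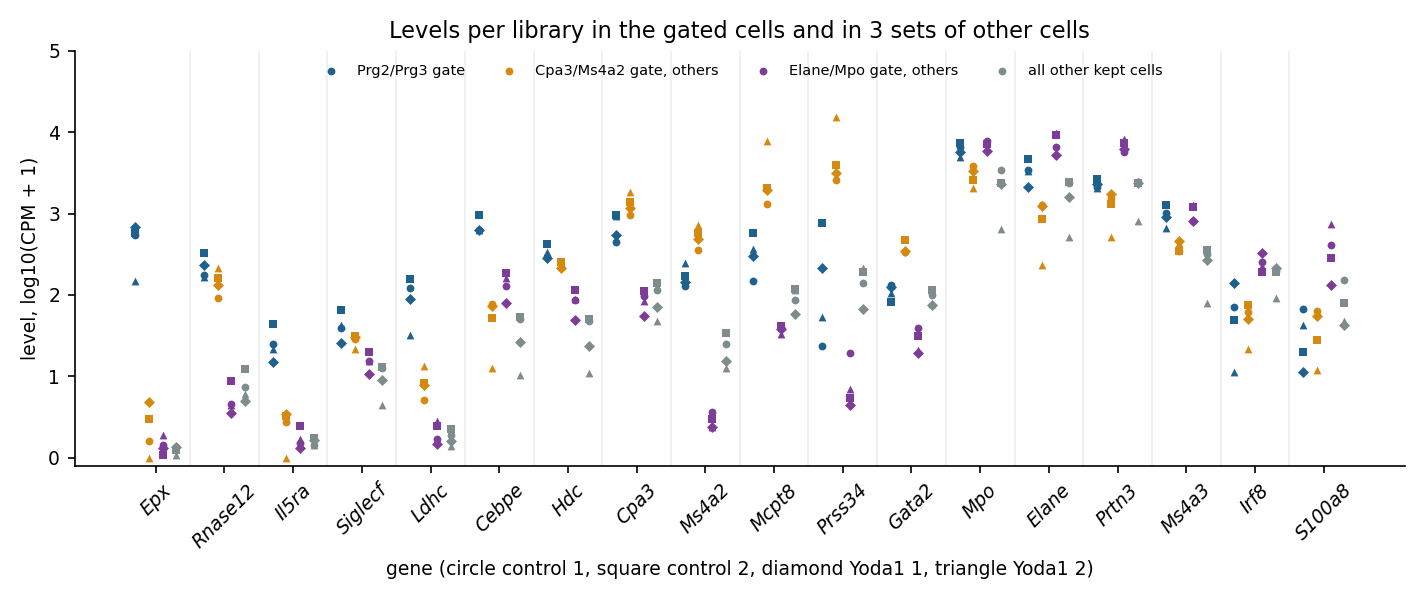
Level of 18 genes (log10 of CPM + 1) in each library for the gated cells, the other Cpa3/Ms4a2 cells, the other Elane/Mpo cells and all other kept cells, with 1 symbol per library. Epx, Il5ra, Ldhc and Cebpe separate the gated cells from all 3 other sets. Prss34 was highest in Cpa3/Ms4a2 cells, and so was Ms4a2, which that gate requires. Prtn3 and S100a8 were highest in Elane/Mpo cells.

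The next comparison was with the other 882 cells that passed the Cpa3/Ms4a2 gate, taken as a related class of granulocyte progenitors. Against them the gated cells were higher in eosinophil and neutrophil granule genes and lower in basophil proteases and immediate early genes. Of 8973 genes tested, 175 were higher (1.95%) and 170 lower (1.89%, or 3.84% in either direction), and the median log2 fold change was 0.01. Without control 2 the counts were 68 and 70, and without control 1 they were 112 and 90. Cpa3 and Ms4a2, read by the gate of the other cells, were left out. That gate required both genes of every other cell but not of the gated cells. How far this raised further mast cell and basophil genes in the other cells was not tested.

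Of 7 tested eosinophil granule and ribonuclease genes 5 were higher (1.95% of all genes were called higher), with a median of 6.05. Genes nearly absent in the Cpa3/Ms4a2 cells, such as Epx, could pass the filter on low counts through the gated cells alone. Rnase4, Ang and Ear10 were not tested. Epx stood at 0.594, 1.98, 3.90 and 0 CPM in the Cpa3/Ms4a2 cells, far under its gated values, a log2 fold change of 8.39 ± 0.25 (SE; adjusted p = 1.28e-18, edgeR). Rnase12 was shared: the Cpa3/Ms4a2 cells had 89.6, 160, 132 and 212 CPM, and the log2 fold change was 0.99 ± 0.15 (adjusted p = 8.83e-05, edgeR). In Yoda1 2 the order of Rnase12 was the other way round. Il5ra stood at 1.78, 2.23, 2.44 and 0 CPM in the Cpa3/Ms4a2 cells (3.8 ± 0.42), and Ldhc at 4.16, 7.19, 6.83 and 12.5 CPM (4.46 ± 0.23).

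The transcription factors separated these granulocyte neighbours in both directions, with 4 of 19 higher and 7 lower. Cebpe was at 75.5, 50.6, 72.7 and 11.6 CPM in Cpa3/Ms4a2 cells (3.52 ± 0.20, adjusted p = 1.98e-12, edgeR), and Myb was higher by 0.72 ± 0.14 in gated cells, though not without control 2. Gata2, a factor of mast cells and basophils, stood at 338, 476, 347 and 481 CPM in Cpa3/Ms4a2 cells against 132, 81.4, 125 and 104 CPM in gated cells (-1.75 ± 0.19, adjusted p = 5.53e-07, edgeR). Lmo4 (-1.39 ± 0.15) and Cebpa (-1.13 ± 0.20) were lower too, whereas Gata1 was not called (0.03 ± 0.28).

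Mast cell and basophil genes outside the gate were lower in 5 of 6 tested members. Prss34 stood at 2568, 3966, 3105 and 15310 CPM in Cpa3/Ms4a2 cells and was lower in gated cells by 3.78 on the log2 scale. Mcpt8 was at 1298, 2045, 1926 and 7730 CPM there (-2.44 ± 0.20), and Fcer1a, the binding chain of the IgE receptor, at 80.4, 157, 112 and 320 CPM (-3.51 ± 0.33). Gzmb, with 900 UMIs in the Cpa3/Ms4a2 cells and none in the gated cells of the 3 libraries, was at least 40.1-fold higher in the former, counting 3 UMIs as the floor. Hdc was the 1 member that was higher in gated cells (0.57 ± 0.15, adjusted p = 0.0239, edgeR), at 219, 252, 214 and 239 CPM in Cpa3/Ms4a2 cells, and that call was lost without control 2.

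Neutrophil primary granule genes were higher in 4 of 7 tested members, with Elane up by 1.59 ± 0.20, Ms4a3 by 1.52 ± 0.16, Mpo by 1.07 ± 0.16 and Prtn3 by 0.67 ± 0.15. The calls of Mpo and Prtn3 were lost without control 2. Alas1 (1.53 ± 0.17) and Lta4h (1.21 ± 0.16) were higher, and Alox5 was lower (-1.33 ± 0.26). Of the secretory genes 7 of 18 were higher and none lower (median 0.43). Few of the drops seen against all other cells were called here, where 1.89% of all genes were lower. Lower were 1 of 7 tested stem, none of 3 lymphoid and 1 of 9 monocyte genes. Of 9 megakaryocyte and erythroid genes 2 were lower and 1 higher, and of 16 interferon-response genes 1 was lower. The lysosomal genes Ctsh (2.62 ± 0.21) and Arsb (2.42 ± 0.19) were again among the largest rises.

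Immediate early genes, which respond within minutes to stimulation or to handling of cells, were lower in 11 of 12 tested members (1.89% of all genes were called lower), with a median of -1.10. Jun stood at 140, 383, 87.1 and 93.4 CPM in gated cells and at 329, 706, 276 and 466 CPM in Cpa3/Ms4a2 cells (-1.13 ± 0.17, adjusted p = 5.32e-05, edgeR). Egr1 (-1.41 ± 0.26) and Ier3 (-1.30 ± 0.20) were lower as well, Egr1 not without control 2. Over the list the summed level was 652, 1160, 345 and 675 CPM in gated cells and 1328, 2364, 1050 and 1791 CPM in Cpa3/Ms4a2 cells, lower in each library, and the library with the highest level, control 2, was the same in both.

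**Figure D4:**
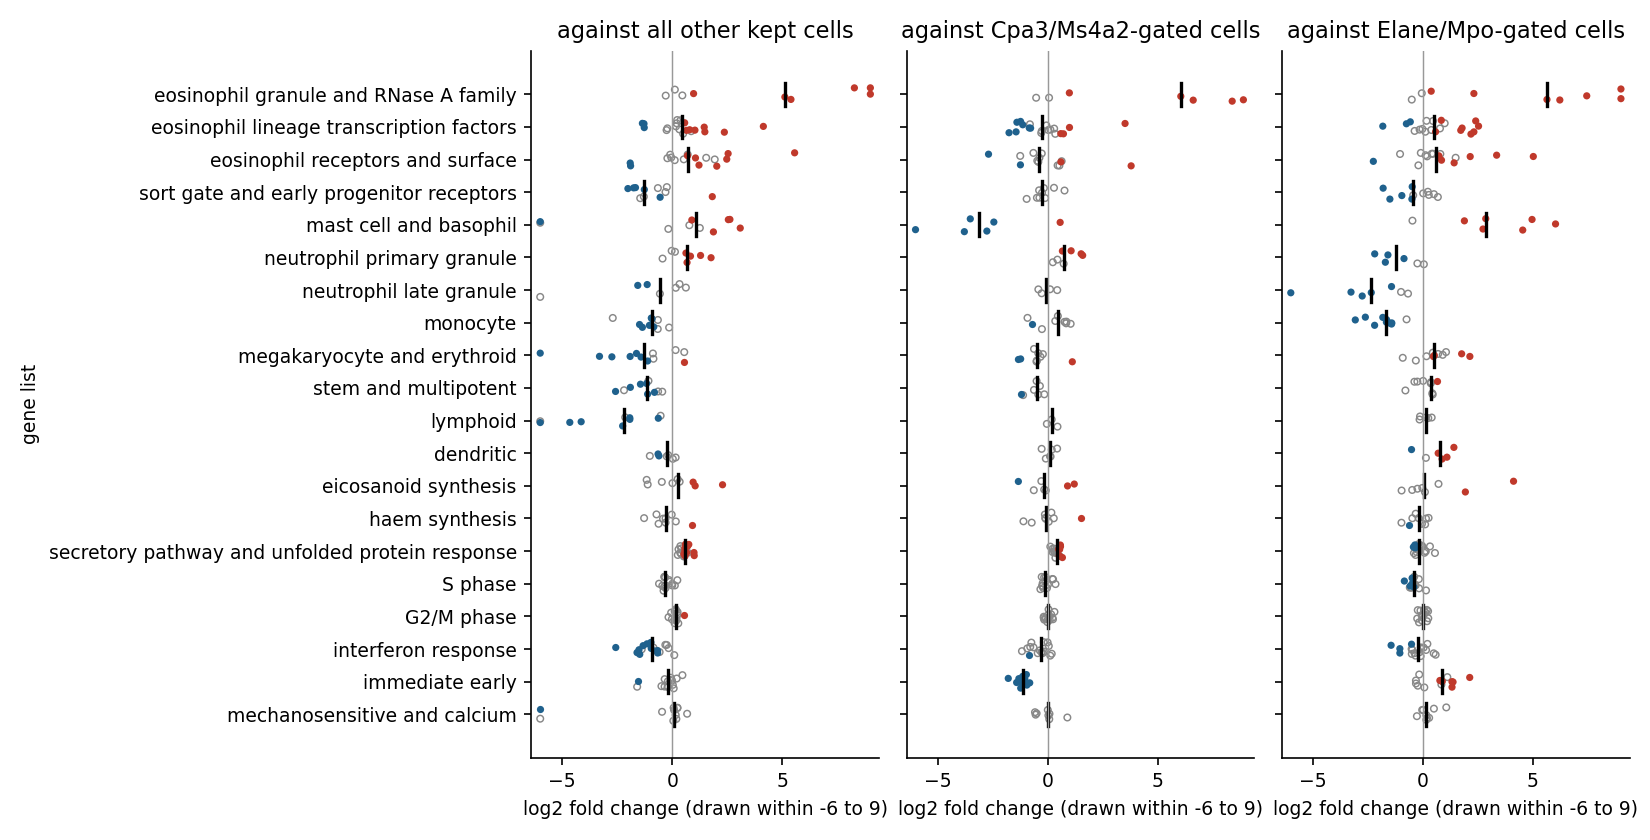
Log2 fold change of every tested gene of 20 lists between the gated cells and all other kept cells (left), Cpa3/Ms4a2 cells (middle) and Elane/Mpo cells (right), where red is called higher, blue called lower, open grey not called and the bar the median (values beyond the axis are drawn at its end). Eosinophil granule genes lie to the right in all 3 comparisons, with medians of 5.12, 6.05 and 5.64. Mast cell and basophil genes lie on opposite sides in the last 2, with medians of -3.13 and 2.86. The Elane/Mpo set was chosen without Cpa3/Ms4a2 cells.

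The last comparison was with the other 4652 cells of the Elane/Mpo gate, which were chosen without Cpa3/Ms4a2 cells. Against them the gated cells were higher in mast cell and basophil, GATA factor and immediate early genes. They were lower in late neutrophil, monocyte and some S-phase genes. Of 12473 genes tested, 437 were higher (3.5%) and 635 lower (5.09%, or 8.59% in either direction), with a median log2 fold change of -0.04. Without control 2 the counts were 184 and 185. Mpo and Elane were left out because that gate reads them: Mpo stood at 7769, 7050, 5868 and 7505 CPM in the Elane/Mpo cells, so gated cells had levels of the same order.

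Of 9 tested eosinophil granule and ribonuclease genes 7 were higher (3.5% of all genes were called higher), with a median of 5.64. The limit set by the filter on low counts applied here too. Epx stood at 0.415, 0.0897, 0.324 and 0.913 CPM in the Elane/Mpo cells, a log2 fold change of 10.82 ± 0.20. Cebpe was the most evenly shared of the markers: the Elane/Mpo cells had 128, 187, 77.7 and 159 CPM, and the gated cells were higher by 2.40 ± 0.12 (adjusted p = 1.13e-84, edgeR). Il5ra was higher by 5.02 ± 0.47 and Rnase12 by 5.64 ± 0.17.

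Gata1 stood at 19.7, 3.72, 7.09 and 1.14 CPM in the Elane/Mpo cells, lower than in gated cells of every library (2.53 ± 0.24, adjusted p = 9.57e-23, edgeR). Gata2 was at 38.5, 29.9, 18.1 and 19.9 CPM there (1.78 ± 0.17), Ikzf2 was higher by 2.19 ± 0.15 and Lmo4 by 1.72 ± 0.13 in gated cells. Irf8, the factor of monocyte and dendritic cell fate, was lower (-1.82 ± 0.16). Of mast cell and basophil genes 6 of 7 tested were higher, including Ms4a2 (6.03 ± 0.22), Cpa3 (2.73 ± 0.12), Mcpt8 (2.86 ± 0.14) and Hdc (1.89 ± 0.13). However, the Elane/Mpo set was chosen without Cpa3/Ms4a2 cells, while the 51 gated cells that passed the Cpa3/Ms4a2 gate stayed. The folds of Ms4a2 and Cpa3 were thus set in part by that choice. How far it raised the other genes was not tested. Alox5 was higher by 4.12 ± 0.47, Apoe by 1.76 ± 0.12 and Itga2b by 2.14 ± 0.18.

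Among the lower genes, Prtn3 (-1.59 ± 0.12) and Ctsg (-0.86 ± 0.11) were 2 of 4 primary granule genes called among 6 tested. Late granule genes were lower in 5 of 7 (5.09% of all genes were called lower): S100a8 stood at 411, 282, 132 and 733 CPM in the Elane/Mpo cells and at 65.8, 19.1, 10.5 and 41.5 CPM in gated cells (-3.27 ± 0.19, adjusted p = 1.65e-63, edgeR). Camp, with no UMI in the gated cells, was at least 4.64-fold higher in Elane/Mpo cells. Monocyte genes were lower in 9 of 10 members (median -1.65), Ly6c2 by -2.61 ± 0.14 and Csf1r, the receptor of M-CSF, by -1.50 ± 0.33. Csf3r, the G-CSF receptor, was lower by 1.80 on the log2 scale. The rise of secretory pathway genes was not seen here: of 18 tested none was higher and 3 (Pdia3, Pdia6 and Sdf2l1) were lower, with a median of -0.17. Summed over that list, gated cells had 8901, 10270, 9365 and 7651 CPM and Elane/Mpo cells 9209, 9555, 9781 and 9854 CPM. Alas1, higher in both earlier comparisons, was called lower than in Elane/Mpo cells. Of 14 S-phase genes 5 were lower and no G2/M gene was called. None of 9 tested stem genes and none of 5 lymphoid genes was lower, and the stem gene Meis1 was higher. Of 11 megakaryocyte and erythroid genes 4 were higher and none lower. Of 18 interferon-response genes 4 were lower and none higher. Immediate early genes went the other way from the preceding comparison, with 7 of 14 higher (median 0.86), among them Egr1 (2.13 ± 0.39) and Jun (1.32 ± 0.15).

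The treatment comparison inside the gated cells set Yoda1 1 (14 cells) against the 2 control libraries and so had 1 treated library and 1 residual degree of freedom. In all, 6 genes were higher (0.0791% of 7585 tested) and 4 lower (0.0527%) by edgeR at adjusted p under 0.05, 293 genes had an unadjusted p under 0.05, and DESeq2 called none. The median log2 fold change was -0.03. Among eosinophil genes, Epx stood at 546 and 580 CPM in control and 690 and 145 CPM in Yoda1 cells, and Cebpe at 635 and 959 against 620 and 633 CPM. Prg2 and Prg3 were not left out of this fit although they chose the cells, so nothing is drawn from their result. With all 4 libraries no gene was called higher and 1 lower.

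Most of the 10 calls rested on 1 or 2 cells. H2-Aa, Cd74 and H2-Eb1, genes of antigen presentation by MHC class II, were lower in Yoda1 1, but in control 2 a single cell held 107 of 108, 200 of 209 and 78 of 81 of their UMIs. Car1, an erythroid carbonic anhydrase, stood at 178, 62.3, 533 and 0 CPM (2.26 ± 0.41, adjusted p = 0.000124, edgeR), and 2 cells of Yoda1 1 held 118 and 34 of its 153 UMIs there. F13a1, a monocyte transglutaminase, had 30 UMIs in Yoda1 1, all in 2 cells, and Ly6c2 had 52 and 25 of its 91 UMIs in 2 cells. With the cells of highest doublet score removed Car1 and F13a1 stood at -3.85 and -5.68. With the wider gate of 3 Prg2 UMIs H2-Aa, Cd74 and H2-Eb1 stood at 0.99, 2.27 and 1.43, none of them called. Yoda1 2 then had 11 gated cells and entered the fit, so the gate and the set of libraries changed together. With all 4 libraries at the gate of 5 Prg2 UMIs Cd74 was still called lower. Nufip2 stood at 56.2, 55.4, 3.48 and 83.1 CPM (-3.82 ± 0.98, adjusted p = 0.0488, edgeR), so Yoda1 2 did not share the low value of Yoda1 1.

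Of 14 tested genes of the interferon-response list 2, Isg15 and Rtp4, were higher and none was lower (median 1.47). Isg15 stood at 20.9, 26.0, 132 and 0 CPM (2.58 ± 0.48, adjusted p = 0.000124, edgeR), and its 38 UMIs in Yoda1 1 came from 8 of 14 cells, 2 of which held 60.5%. Ifitm3, a membrane protein that restricts viral entry, stood at 400, 286, 1327 and 301 CPM (2.05 ± 0.41, adjusted p = 0.000905, edgeR) with UMIs in 13 of 14 cells, and lies outside that list. Rtp4 stood at 46.5, 17.3, 122 and 20.8 CPM (2.02 ± 0.47, adjusted p = 0.0159, edgeR). In Yoda1 2 none of the 3 reached the level of Yoda1 1. The other cells of Yoda1 1 were high in the same genes: Isg15 was at 87.5, 47.6, 357 and 40.4 CPM and Ifitm3 at 1038, 887, 2214 and 848 CPM in all other kept cells. The rise in Yoda1 1 was thus seen in gated and in other cells alike, whereas in the other cells of Yoda1 2 both genes lay under both controls. Within the gated cells treatment and library cannot be told apart, since that fit held 1 treated library. The part of either was not tested. None of the 6 calls upward was kept when the 6 Pf4-rich cells of control 1 were left out, although the folds stayed about as large or larger: Isg15 stood at 2.39 (adjusted p = 0.304), Ifitm3 at 2.11 (0.103), Car1 at 2.46 (0.355) and F13a1 at 6.39 (0.103, all edgeR).

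**Figure D5:**
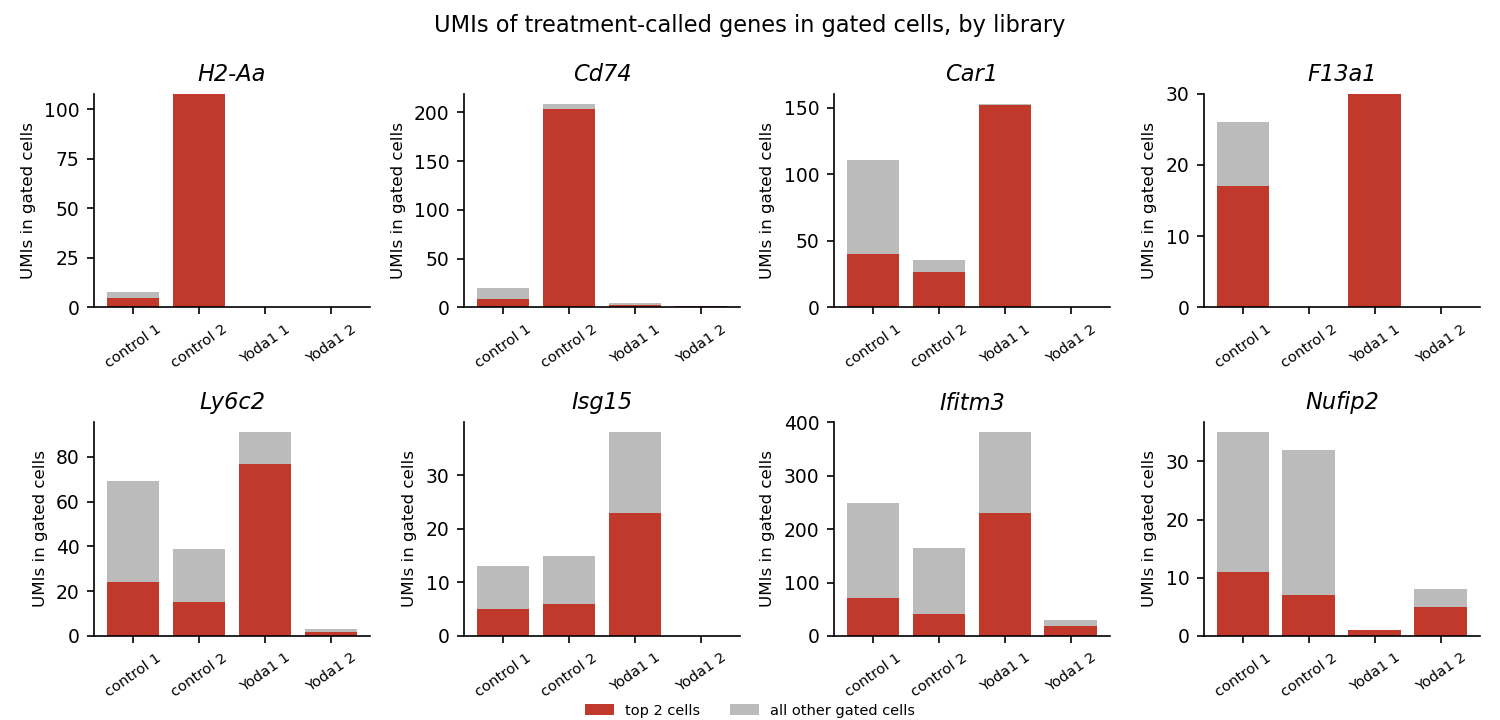
UMIs of 8 genes called between Yoda1 1 and the control libraries, summed over gated cells of each library (bars from 0), with the part held by the 2 cells of highest count in red and by all other gated cells in grey. H2-Aa and Cd74 in control 2 and Car1 and F13a1 in Yoda1 1 come almost wholly from the top 2 cells, whereas these cells held 60.1% of the 381 Ifitm3 UMIs of Yoda1 1.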

How the data were processed

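Single-cell RNA libraries of LSK cells from control and Yoda1-treated wild-type mice were analysed, with 2 libraries per group. The authors deposited raw UMI counts per gene and cell barcode, produced with Cell Ranger 7.1.0 per the file headers. Per the submitters' processing notes, the build was GRCm38 (mm10) and Seurat 4.3.0 was among the tools. The labels name both 10x Genomics and a Singleron microwell chip, so the capture platform is uncertain, and the annotation release and the treatment of intronic reads are not given in the sources used here.

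Cells and gates were chosen as the results state, and the cells, gene lists and tests were chosen with earlier results of these data known. Counts were summed per library over the gated cells and over each set compared with them, for libraries with at least 10 gated cells, which left out Yoda1 2. Genes were tested with edgeR 4.0.16 (R 4.3.3) by its quasi-likelihood test with TMM scaling, its filter on low counts, the library as a block and Benjamini-Hochberg adjustment at 0.05. Treatment was tested on the same sums without a block. DESeq2 1.42.0 and limma-voom (limma 3.58.1) were alternatives. The scripts were tested on simulated data. Genes were named by a rule: among called genes with the same sign in every library and a mean of at least 50 CPM on the higher side, the 25 highest and 12 lowest fold changes against all other cells and 10 in each direction against each neighbour set, the 5 of smallest p in each direction for treatment, up to 6 members of each of 20 lists (256 entries) by level or adjusted p, and Kit, Ly6a, Cd34, Il5ra, Gata1, Gata2, Mki67 and Piezo1. Rtp4 and any further list member were named after their values were seen. Shares carry exact (Clopper-Pearson) 95% intervals, which cover counting error only, and were compared by an exact permutation test (scipy 1.17.1). Total depth was 89058521 to 110493533 UMIs per library. Scrublet (scanpy 1.11.5) marked 575, 1, 0 and 0 cells and was taken not to have worked, so doublets were kept. Removing the 465, 489, 666 and 761 cells of highest score was an alternative, named below as doublets removed although these cells are not known to be doublets. Other alternatives changed the gate, cell filter, depth, scaling, filter on low counts and libraries. The labels do not say that equal replicate numbers pair libraries. Leaving out the 6 Pf4-rich cells and fitting all 4 libraries were added after seeing the data.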

Additional observations from a re-analysis of the deposited data

Results flagged for a closer look

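In 5 genes 1 library stood apart from the other 3 in the log2 ratio of gated to other cells (CPM + 1), among 44 genes examined, where chance sets apart about 1 in 20. For Epx the ratio was 7.07 in Yoda1 2 and 8.67, 8.85 and 8.98 in the others. For Ms4a3 it was 3.04 in Yoda1 2 against 1.65, 1.84 and 1.78. For Abcb10 it was -0.33 in Yoda1 2 against 1.56, 1.61 and 1.48. Yoda1 2 held only 7 gated cells. B4galt6 stood at 1.29 in Yoda1 1 against 1.8, 1.72 and 1.72, and Prdx4 at -2.87 in control 2 against -1.56, -1.51 and -1.61. Outside the cells analysed, 3 barcodes (1, 2, 0 and 0 per library) passed the Prg2 and Prg3 gate but not the filter on cells.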

How the results depend on the processing

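The lower share of gated cells in Yoda1 libraries kept its direction under every alternative run, with differences from -0.386 to -0.143 percentage points, and from -0.395 to -0.313 when a library was left out. With the replicate block the difference was -0.354 points (p = 0.5, exact permutation within pairs, 4 arrangements). The number of genes higher and lower against all other cells (402 and 369) was 114 and 152 with cells thinned before summing. It was 247 and 104 with no replicate block, and 121 and 146 without the gated Cpa3/Ms4a2 cells (control libraries only). The number lower was 117 with DESeq2, 77 with limma-voom and 585 without Pf4-rich cells. Leaving out a library gave 137 to 411 higher and 87 to 406 lower. Against Cpa3/Ms4a2 cells (175 and 170) the numbers were 287 and 291 with doublets removed, 80 and 67 with DESeq2 and 92 and 75 with no replicate block, and ranged from 68 to 227 and from 70 to 210 over left-out libraries. Against Elane/Mpo cells (437 and 635) they were 250 and 177 with DESeq2 and 157 and 81 with no replicate block, the number lower was 418 with all 4 libraries and 225 with limma-voom, and left-out libraries gave 184 to 365 and 185 to 480. For treatment (6 and 4) they were 17 and 11 with cells thinned before gating, 0 and 1 with all 4 libraries, and 0 and 0 with the replicate block added to these, with doublets removed, with either other Prg2 and Prg3 gate (the wider brought Yoda1 2, with 11 cells, into the fit), with DESeq2 and without Pf4-rich cells. With limma-voom 0 were lower.

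Directions turned as follows, in log2 fold change against all other cells. Without the gated Cpa3/Ms4a2 cells, and with such cells kept on the other side, Gata1 was at -0.14, Gata2 at -0.25 and Prss34 at -4.01. With cells thinned before summing Gata2 was at -0.06, Mki67 at 0.06 and Il3ra at -0.04. Piezo1 was at -0.26 with cells thinned before gating, -0.29 with the stricter gate, -0.01 with limma-voom and -0.12 without Pf4-rich cells, and ranged from -0.27 to 0.17 over left-out libraries. Over left-out libraries Gata2 ranged from -0.01 (without Yoda1 1) to 0.51 and Prss34 from -0.15 (without control 2) to 1.93. For treatment Car1 was at -3.85 and F13a1 at -5.68 with doublets removed, and H2-Aa at 0.99, Cd74 at 2.27 and H2-Eb1 at 1.43 with the wider gate and Yoda1 2 together. The causes were not tested. With 7 to 36 gated cells per library, genes of few counts could not be resolved.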
